A study of Mus musculus with 12 samples.

Results

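Complement is a cascade of plasma proteases and their substrates. In its classical arm, the C1 complex, which holds the proteases C1r and C1s, cleaves C4 and C2, and the resulting enzyme cleaves C3, whose fragments mark surfaces and attract leukocytes. Factor B serves the alternative arm, and inhibitors such as C1 inhibitor and CD55 hold the cascade in check. Acute phase proteins are secreted proteins whose genes respond to inflammatory cytokines, classically in the liver through STAT3, NF-kappaB and C/EBP factors. Fibroblasts also make several of them, and C3 and Saa3 are among the genes used to describe inflammatory fibroblasts of pancreatic tumours.

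The 9 genes described here were listed by name, for their role, with earlier results of these data known. They are the C1 proteases C1ra and C1s1, the components C4b, C3 and Cfb, the inhibitors Serping1 and Cd55, and the acute phase genes Saa3 and Lcn2. All 9 were among the 16386 genes of the table for PSC4, a mouse pancreatic stellate cell line, and 8 were among the 15309 genes of the table for KPC4, a mouse pancreatic adenocarcinoma line. Serping1 was not in the KPC4 table. The 2 tables together held 17335 genes. C3, C4b and Cfb lie on mouse chromosome 17, C1ra and C1s1 lie next to each other on chromosome 6, Lcn2 and Serping1 lie on chromosome 2, Saa3 on chromosome 7 and Cd55 on chromosome 1.

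The study moved medium from tumour cells to stellate cells and back. KPC4 cells were given 10 µM gemcitabine, a nucleoside drug that blocks DNA synthesis, or vehicle for 6 h. They were then washed and kept for 14 h in starvation medium, which became Gem-SU or Control-SU (SU, supernatant), and PSC4 cells were kept in it for 24 h before RNA was taken. In the second experiment PSC4 cells spent 6 h in either supernatant, were washed and were left for 18 h in new starvation medium, and KPC4 cells then received that medium, Control-PSC-SU or Gem-PSC-SU, for 24 h. Each of the 4 groups had 3 libraries, labelled biological replicates, so that every group shares the transfer of medium and only the drug given to the first donor cells differs. Each line is a single line, no group received unconditioned medium, and the labels do not say whether replicates were separate batches of supernatant. The count per library was 29559414 to 38138356 in PSC4 and 26354328 to 34744150 in KPC4. Levels below are counts scaled to library size (CPM) with TMM factors within a line, and a gene was called changed at an edgeR quasi-likelihood adjusted p under 0.05 (Benjamini-Hochberg over all genes tested in that line).

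The labelled cell types were checked on marker genes. Of 10 stellate cell markers, all were in the PSC4 table, with a summed level of 7814 to 8409 CPM in Control-SU and 2403 to 3575 CPM in Gem-SU, and 7 of the 10 were called lower, Pdgfra by the largest amount (log2 fold change -3.30, edgeR adjusted p = 5.98e-05). Of 8 epithelial markers, 4 were in that table, without Epcam and Cdh1, and their sum was 3.51 to 6.00 CPM in Control-SU and 10.2 to 14.8 CPM in Gem-SU. In KPC4, 7 of the 8 epithelial markers were in the table and summed to 5965 to 7392 CPM in Control-PSC-SU and 5959 to 7418 CPM in Gem-PSC-SU. The stellate list was not low there, at 2417 to 2806 CPM and 1848 to 2208 CPM, mostly from Vim (means of 2588 and 2053 CPM). The hepatocyte list summed to 239 to 430 CPM in Control-PSC-SU of KPC4, mostly from Apob (mean of 320 CPM). In KPC4 the macrophage and leukocyte list reached at most 2.07 CPM and the endothelial list 3.72 CPM. Lists for macrophages and leukocytes summed to at most 5.72 CPM in any library of PSC4, with C1qa absent from the table, and that for hepatocytes, of which only Apob was in the table, to at most 1.23 CPM. The endothelial list summed to 0.609 to 1.43 CPM in Control-SU and 2.70 to 4.85 CPM in Gem-SU. The other 3 stellate markers were not called in PSC4: Acta2 (0.78, edgeR adjusted p = 0.0538), Des (0.25) and Fap (-0.38). Most stellate markers were thus lower in the same libraries as the complement genes below. Their part in those results was not tested, and in such bulk libraries fewer cells of a kind and less RNA per cell cannot be told apart.

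Promoter sequences were read for the members from RefSeq (GRCm38.p6), which held windows for 6 of the 9. Windows of 4 genes are shown: C3 and C1s1, of the 3 members with high levels in PSC4, Saa3, the member with the largest change, and Cd55, a member that was higher in KPC4. The windows of C1ra, the other high member, and Lcn2 are not shown because they run into annotated transcripts. Each run is the stretch before the annotated start, 5′ to 3′ on the strand of the gene. Capitals mark matches, on either strand, to TTNNGNAA, the consensus of C/EBP factors.
C3, chr17:57228137-57228386, minus strand: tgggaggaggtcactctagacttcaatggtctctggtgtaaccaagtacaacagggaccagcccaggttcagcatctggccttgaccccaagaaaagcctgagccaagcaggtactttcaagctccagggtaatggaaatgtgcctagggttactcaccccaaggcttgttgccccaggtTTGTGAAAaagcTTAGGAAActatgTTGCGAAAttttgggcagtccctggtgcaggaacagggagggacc
C1s1, chr6:124542360-124542609, minus strand: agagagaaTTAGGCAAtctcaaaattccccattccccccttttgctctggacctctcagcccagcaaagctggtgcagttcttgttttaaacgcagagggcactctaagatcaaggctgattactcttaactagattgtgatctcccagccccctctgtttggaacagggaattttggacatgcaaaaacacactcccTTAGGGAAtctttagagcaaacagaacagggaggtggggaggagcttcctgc
Saa3, chr7:46715701-46715926, minus strand: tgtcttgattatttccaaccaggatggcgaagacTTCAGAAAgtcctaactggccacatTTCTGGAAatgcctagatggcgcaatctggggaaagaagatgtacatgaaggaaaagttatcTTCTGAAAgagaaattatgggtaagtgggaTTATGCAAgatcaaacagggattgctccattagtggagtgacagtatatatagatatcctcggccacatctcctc
Cd55, chr1:130462745-130462994, minus strand: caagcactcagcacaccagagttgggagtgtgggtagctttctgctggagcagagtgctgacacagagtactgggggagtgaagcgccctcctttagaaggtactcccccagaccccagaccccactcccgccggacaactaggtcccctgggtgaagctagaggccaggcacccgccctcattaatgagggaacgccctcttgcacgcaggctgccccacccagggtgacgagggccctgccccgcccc
The C3 run held 3 matches, the C1s1 run 2, the Saa3 run 4 and the Cd55 run 0. RefSeq held another window for C1s1, which overlaps the run and held 1 match. It is not shown because it runs into an annotated transcript. The 250 bases before the RefSeq start of C1ra held 2 matches, with 0 in the 34 bases that lie before every annotated start, and those of Lcn2 held 1. Over 32851 windows of 250 bases before annotated mouse starts, 36.8% held at least 1 match, 10.9% at least 2, 2.61% at least 3 and 0.591% at least 4. The NF-kappaB consensus, by name, and the STAT consensus TTCNNNGAA were in 7.25% and 7.02% of those windows and had 0 matches in the members' windows. A match is a stretch of letters and not a measured binding site, and no match says only that the letters are not in the window. The deposited counts were made on another build, GRCm39, so these coordinates belong to the sequences alone.

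In PSC4 cells, Gem-SU went with lower levels of both C1 proteases, of C3 and of Saa3, by 2.21-fold to 4.87-fold. Factor B, Serping1 and Lcn2 also passed the test, from lower counts. No member was called higher. Of the 9 genes, 8 had enough counts to be tested, and 7 of these 8 were called, all lower. Over all 13347 genes tested in PSC4, 46.3% were called and 22% were called lower. The median log2 fold change was -1.82 over the 8 tested members and -0.0032 over all genes tested. In 6 of the 8 every Gem-SU library was below every Control-SU library, which was so for 27.1% of all genes tested. Lcn2 and Serping1, both among the 7, passed the filter on low counts with the help of their Control-SU libraries. Each had 1 Gem-SU library under 10 counts. With at least 10 counts required in every library, which leaves both out, 5 members and 48.5% of all genes were called.

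**Figure D1:**
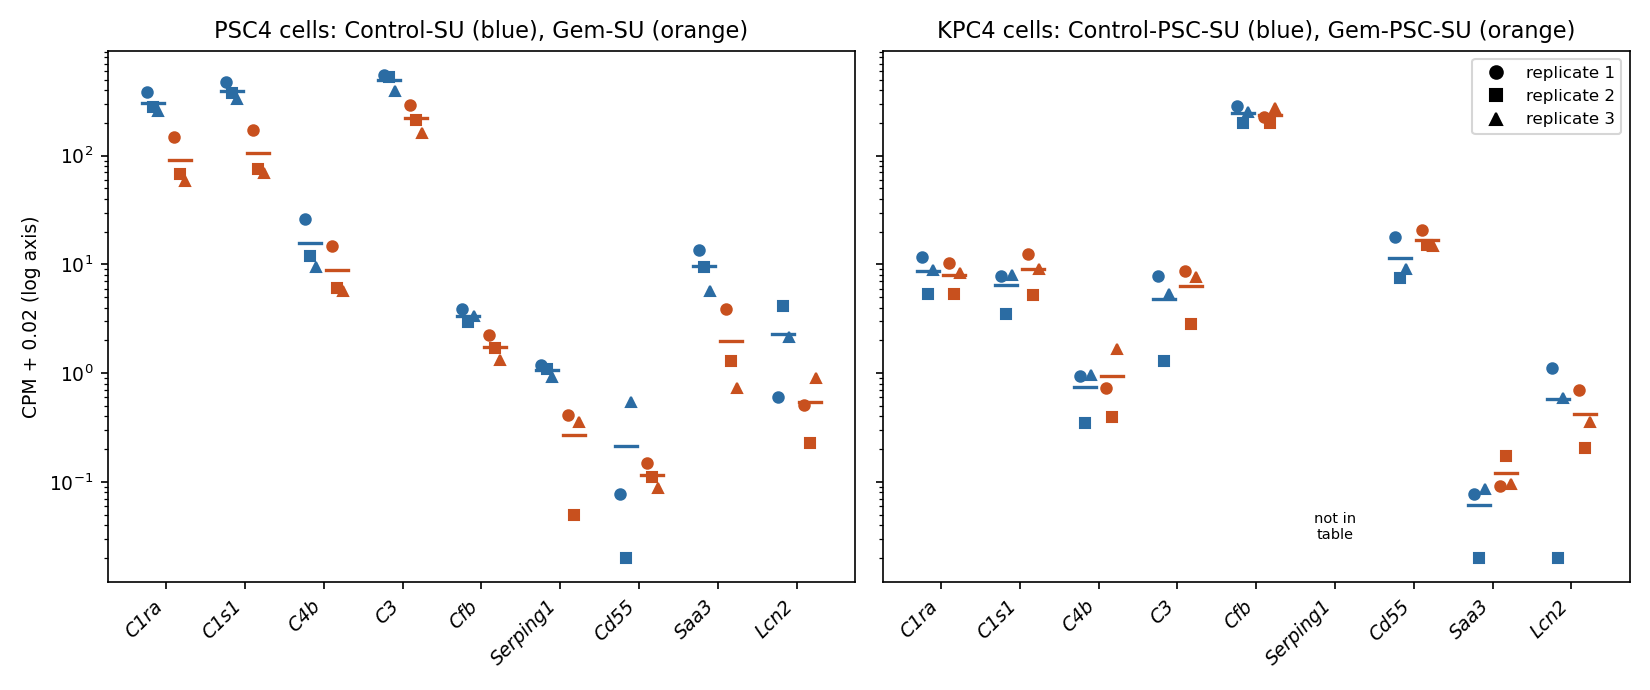
Level of each member in every library (CPM plus 0.02, log axis), PSC4 left and KPC4 right, with control libraries in blue, gemcitabine-derived ones in orange, marker shape for the replicate and a bar at the group mean. The orange points of C1ra, C1s1, C3, Cfb, Serping1 and Saa3 lie below the blue ones in PSC4, and the groups of every tested member overlap in KPC4.

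C1s1 (ENSMUSG00000038521) encodes C1s, the protease of the C1 complex that cuts C4 and C2. Its level was 471, 373 and 332 CPM in the Control-SU replicates 1, 2 and 3 and 174, 74.9 and 69.6 CPM in the Gem-SU replicates. The groups did not overlap, and Gem-SU replicate 1 was the highest of its group. C1s1 fell by 1.89 on the log2 scale (SE 0.35, 95% interval -2.69 to -1.08, edgeR adjusted p = 0.003), a 3.69-fold lower level.

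C1ra (ENSMUSG00000055172) encodes C1r, the protease that activates C1s. It stood at 382, 282 and 259 CPM in Control-SU and at 148, 67.2 and 58.8 CPM in Gem-SU. The order of the libraries was the same as for C1s1, with replicate 1 highest in both groups. C1ra fell by 1.75 (log2, SE 0.35, 95% interval -2.54 to -0.95, edgeR adjusted p = 0.00411). Both genes have a close copy, C1rb and C1s2, to which the authors' counting could assign reads. C1rb had at most 16 counts and C1s2 at most 19 in a PSC4 library, against at least 1737 for C1ra and 2054 for C1s1.

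The ratio of the 2 proteases was also followed. C1ra counts per C1s1 count were 0.81, 0.756 and 0.779 in Control-SU and 0.854, 0.897 and 0.846 in Gem-SU, means of 0.782 ± 0.0271 and 0.866 ± 0.0274 (SD, n = 3). The ratio was higher in each Gem-SU library, and with 3 against 3 libraries a two-sided exact permutation test cannot give a p under 0.1. In KPC4 the ratio was 1.49, 1.53 and 1.12 with Control-PSC-SU and 0.813, 1.01 and 0.909 with Gem-PSC-SU, means of 1.38 ± 0.226 and 0.911 ± 0.0985 (SD, n = 3). It was lower in each Gem-PSC-SU library, on counts of 118 to 407 per gene, and so went the opposite way to the ratio in PSC4.

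**Figure D2:**
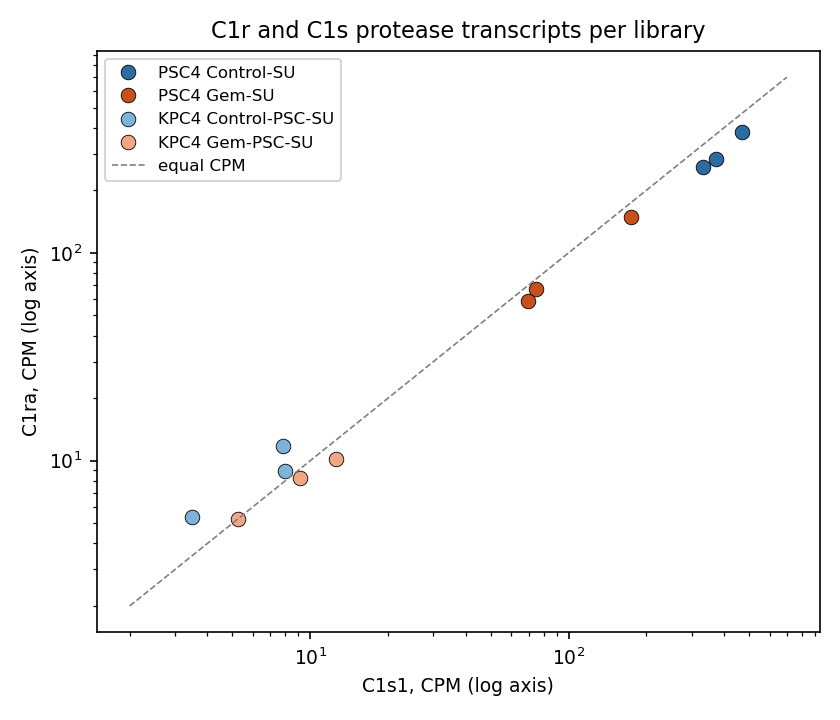
C1ra level against C1s1 level in each of the 12 libraries (CPM, both axes log), coloured by line and group, with a dashed line where they are equal. The PSC4 libraries lie below the line, Control-SU at 332 to 471 CPM of C1s1 and Gem-SU at 69.6 to 174 CPM, and the KPC4 libraries lie at 3.50 to 12.6 CPM on both sides of it.

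C4b (ENSMUSG00000073418) encodes C4, the substrate of C1s. It stood at 26.3, 11.9 and 9.39 CPM in Control-SU and at 14.9, 6.07 and 5.62 CPM in Gem-SU. Replicate 1 was high in both groups, and the Gem-SU replicate 1 lay above 2 of the Control-SU libraries, so the groups overlapped. C4b did not pass the test (log2 fold change -0.84, 95% interval -1.93 to 0.26, edgeR adjusted p = 0.183). Without Gem-SU replicate 1 the value was -1.44 (adjusted p = 0.0201).

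C3 (ENSMUSG00000024164), on which all arms of complement converge, was the most abundant member in PSC4 by CPM. It stood at 553, 533 and 396 CPM in Control-SU and at 295, 214 and 161 CPM in Gem-SU, with no overlap. C3 fell by 1.14 (log2, SE 0.24, 95% interval -1.70 to -0.59, edgeR adjusted p = 0.00559), to 2.21-fold lower. C3, C1ra and C1s1 passed the test whichever single PSC4 library was left out, and C3 missed it in 1 fit over all 12 libraries (adjusted p = 0.0665).

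Cfb (ENSMUSG00000090231), factor B, supplies the protease of the alternative C3 convertase. It had 3.88, 2.91 and 3.31 CPM in Control-SU and 2.21, 1.68 and 1.29 CPM in Gem-SU, again with no overlap. The log2 fold change was -0.96 (SE 0.33, edgeR adjusted p = 0.0398). This call was lost without Control-SU replicate 1 or 3 or Gem-SU replicate 2 or 3, with adjusted p of 0.0813 to 0.131. In the authors' deposited table Cfb has a log2 fold change of -0.75 and an adjusted p of 0.152.

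Serping1 (ENSMUSG00000023224) encodes C1 inhibitor, which inactivates C1r and C1s. It had 40, 34 and 28 counts in Control-SU and 15, 1 and 10 counts in Gem-SU, which is 1.16, 1.07 and 0.91 CPM against 0.39, 0.0301 and 0.339 CPM. The groups did not overlap, and the log2 fold change was -2.03 (SE 0.72, edgeR adjusted p = 0.0455). Only the fit without Gem-SU replicate 1, of the 6 that left out a library, kept this call, and the other 5 gave adjusted p of 0.0718 to 0.111.

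Cd55 (ENSMUSG00000026399), which encodes a membrane protein that speeds the decay of C3 convertases, was near the limit of detection in PSC4. It had 2, 0 and 16 counts in Control-SU and 5, 3 and 2 counts in Gem-SU and was not tested there. Both inhibitors of this set were thus at low levels in the stellate cells, at most 1.16 CPM for Serping1 and 0.52 CPM for Cd55 in a library.

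Saa3 (ENSMUSG00000040026) encodes serum amyloid A3, an acute phase protein that mice make mainly outside the liver. It stood at 13.6, 9.47 and 5.72 CPM in Control-SU and at 3.87, 1.26 and 0.711 CPM in Gem-SU. The groups did not overlap, and replicate 1 was again the highest of each. Saa3 fell by 2.28 (log2, SE 0.59, 95% interval -3.64 to -0.93, edgeR adjusted p = 0.0135), to 4.87-fold lower. Without Gem-SU replicate 2 the value was -2.05 and the call was lost (adjusted p = 0.0583).

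Lcn2 (ENSMUSG00000026822) encodes lipocalin 2, which binds bacterial iron carriers. Its libraries were spread widely, with 0.58, 4.17 and 2.11 CPM in Control-SU and 0.494, 0.21 and 0.881 CPM in Gem-SU. Control-SU replicate 1 lay below Gem-SU replicate 3, so the groups overlapped. The log2 fold change was -2.11 (SE 0.76, 95% interval -3.85 to -0.37, edgeR adjusted p = 0.0493). It was no longer called without Control-SU replicate 2, where the value was -1.37 (adjusted p = 0.174), nor without Control-SU replicate 3 or Gem-SU replicate 1 or 2, with adjusted p of 0.0856 to 0.151.

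The libraries of a group were ordered alike across members. Gem-SU replicate 1 was the highest of its group for 8 of the 9 members and Control-SU replicate 1 for 7 of 9. Of the genes tested in PSC4, which leave out Cd55, 45.2% and 36.5% had their highest value there. Summed over the members, the level was 1451, 1218 and 1009 CPM in Control-SU and 639, 365 and 299 CPM in Gem-SU. The number of members called was 7 in the fit of all 6 libraries, where 46.3% of all genes were called. It was 3 without Gem-SU replicate 2 (29.8% of all genes) and 4 without Control-SU replicate 3 (34.7%). In the authors' deposited table, 6 of the 9 members have an adjusted p under 0.05 in PSC4, each with a lower level in Gem-SU. The share of all genes under 0.05 there was not counted, so the 6 cannot be set against it. DESeq2 as run here called 7 members and 43.7% of all PSC4 genes.

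Between genes, levels were compared per kilobase of the longest protein-coding transcript. In Control-SU the PSC4 cells had 133 ± 24.2 CPM per kb of C1s1, 103 ± 21.9 of C1ra and 96.2 ± 16.6 of C3 (SD, n = 3), and each overlapped the next. Saa3 followed at 4.36 ± 1.79 and C4b at 2.95 ± 1.70 CPM per kb, overlapping each other and Lcn2. With Gem-SU, C3 came first at 43.5 ± 13.1 CPM per kb, then C1s1 at 36.0 ± 19.9 and C1ra at 30.7 ± 16.6, which overlapped their neighbours. Serping1 and Cd55 were last in both groups.

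In KPC4 cells the question was whether medium from stellate cells educated with Gem-SU changed the same genes in tumour cells. None of the 7 tested members passed the test, and none had an unadjusted p under 0.05. Of the 13236 genes tested in KPC4, 0% were called at an adjusted p under 0.05, and 17% had an unadjusted edgeR p under 0.05. DESeq2 called 5.95% of the genes it tested and 0 members. With the replicate number as a block, since same-numbered KPC4 libraries deviated together, 8.85% of genes and 0 members were called. The median log2 fold change was 0.32 over the 7 members and -0.0194 over all genes. The 2 groups overlapped for each of these 7, where 22.8% of all genes did not overlap.

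Cfb was the leading member in the tumour cells. It stood at 284, 200 and 252 CPM with Control-PSC-SU and at 227, 202 and 277 CPM with Gem-PSC-SU. The libraries of the groups were interleaved, with a log2 fold change of -0.06 (95% interval -0.51 to 0.39, edgeR adjusted p = 0.898). Changes of either sign within that interval could not be told from 0.

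Cd55 was at 17.7, 7.44 and 9.04 CPM with Control-PSC-SU and at 20.9, 15.0 and 14.8 CPM with Gem-PSC-SU. Each replicate was higher with Gem-PSC-SU than its number in the control group, while Control-PSC-SU replicate 1 lay above 2 libraries of the other group. The log2 fold change was 0.57 (95% interval -0.21 to 1.35, edgeR adjusted p = 0.422, and 0.0874 with the replicate block).

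The other tumour cell levels were low. C3 had 7.72, 1.27 and 5.33 CPM with Control-PSC-SU and 8.62, 2.82 and 7.69 CPM with Gem-PSC-SU (log2 fold change 0.42, 95% interval -0.99 to 1.82, edgeR adjusted p = 0.753). C1s1 had 7.87, 3.50 and 7.97 CPM against 12.6, 5.24 and 9.12 CPM (0.48, interval -0.45 to 1.41, adjusted p = 0.572 by edgeR). C1ra had 11.7, 5.37 and 8.94 CPM against 10.2, 5.27 and 8.29 CPM (-0.13, interval -0.94 to 0.68, adjusted p = 0.875 by edgeR). These 3 genes share a low replicate 2 in both groups. Number by number, C3 and C1s1 were higher with Gem-PSC-SU in 3 of 3 pairs and C1ra lower in 3 of 3. With the replicate block the log2 fold changes were 0.58 for C3 (SE 0.27, edgeR adjusted p = 0.188), 0.48 for C1s1 (SE 0.21, 0.172) and -0.11 for C1ra (SE 0.20, 0.731), and 0 of the 3 were called. C4b had 0.326 to 0.938 CPM against 0.372 to 1.66 CPM and Lcn2 had 0 to 1.09 CPM against 0.186 to 0.677 CPM, with intervals of -1.26 to 1.90 and -2.98 to 2.03 that hold changes of either sign. In the authors' deposited table the KPC4 log2 fold changes are -0.05 for C3 and 0.04 for C1s1, smaller than those fitted here, and the cause was not tested. Saa3 had 2, 0 and 2 counts against 2, 5 and 2 counts and was not tested. Control-PSC-SU replicate 2 was the lowest library of its group for 8 of the 8 members in the table. Of the genes tested in KPC4, which leave out Saa3, 40.5% had their lowest value there.

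**Figure D3:**
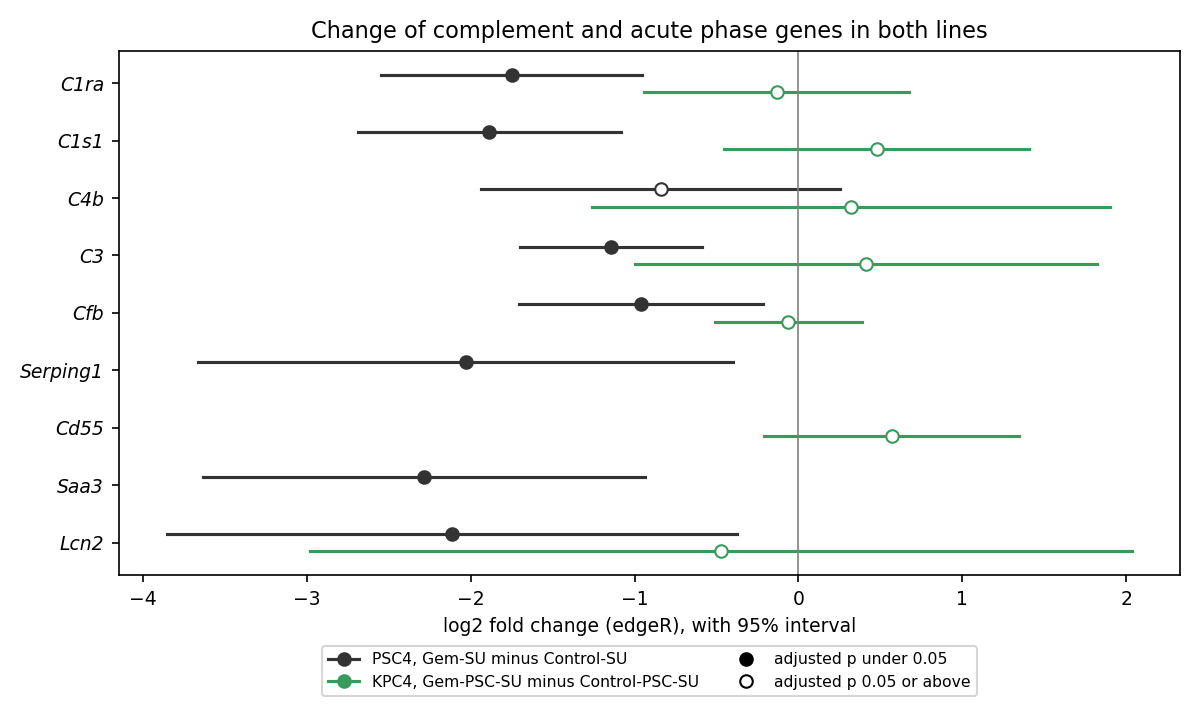
Log2 fold change (edgeR) of each tested member with its 95% interval, PSC4 in black and KPC4 in green, filled where the adjusted p is under 0.05. The black points lie between -2.28 and -0.84, and each of the 7 green intervals includes 0.

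The lines differed widely in which members they had. On a scale shared by the 12 libraries, control levels of C3 were 499 ± 84.8 CPM in PSC4 and 4.84 ± 3.30 CPM in KPC4 (SD, n = 3), 103-fold apart. C1s1 was 60.6-fold, C1ra 35.3-fold and C4b 21.7-fold higher in PSC4. Cfb went the other way, at 3.41 ± 0.517 CPM in PSC4 and 249 ± 41.5 CPM in KPC4, 73.1-fold higher in the tumour cells. Cd55 went the same way, with 2, 0 and 16 counts in the Control-SU libraries of PSC4 and 615, 251 and 270 counts in the Control-PSC-SU libraries of KPC4, and no fold is given against so few counts. The 2 lines were also kept in different media, so line and medium cannot be told apart, and no test was made. Per kilobase, Cfb led in KPC4 with Control-PSC-SU at 89.1 ± 15.2 CPM per kb, and Cd55 came next at 4.501 ± 2.184, overlapping C1ra at 2.91 ± 1.07.

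Whether the change in PSC4 differed from that in KPC4 was tested on the 12 libraries together, as the PSC4 log2 fold change minus the KPC4 one. Of the 13632 genes tested, 9.85% were called. Of the 8 members in both tables, 1 was called: C1s1, at -2.42 (SE 0.58, 95% interval -3.66 to -1.18, edgeR adjusted p = 0.02). The difference was -1.67 for C1ra (edgeR adjusted p = 0.0609), -0.95 for Cfb (adjusted p = 0.0719) and -1.62 for C3 (adjusted p = 0.167). C4b and Lcn2 were also negative, with adjusted p of 0.394 and 0.502. Saa3 entered this fit only through PSC4, with at most 5 counts in a KPC4 library, and Cd55 mainly through KPC4, so their differences are not read. Without Gem-SU replicate 2 of PSC4 the difference of C1s1 was -2.25 and was not called (adjusted p = 0.0589).

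Other genes of the same system were taken from 4 lists, whose counts stand against the 46.3% of all PSC4 genes called and the 22% called lower. Of 19 further complement components, 6 could be tested in PSC4, 3 were called lower and 0 higher, 50% of those tested and so near the share over all genes, with a median log2 fold change of -0.918. C1rl, a C1r-like protease, had 43.9, 42.6 and 45.6 CPM in Control-SU and 11.3, 8.32 and 7.18 CPM in Gem-SU and fell by 2.30 on the log2 scale (edgeR adjusted p = 0.000114). C2, the other substrate of C1s, fell by 1.10 (adjusted p = 0.00698), and Cfp, properdin, which stabilises the alternative convertase, fell by 1.72 (adjusted p = 0.00907). C1rb and Masp2, named after their values were seen, were too low for the edgeR fit. They had at most 3 counts in a Control-SU library and 9 to 16 and 7 to 16 counts in the Gem-SU libraries. DESeq2, without that filter, called both higher and called 43.7% of all PSC4 genes in either direction. Since both were named for values already seen, these calls carry no test. C1qa, C1qb and C1qc, the recognition part of C1, were in neither table.

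Of 15 further regulators and receptors, 7 could be tested in PSC4, 2 were called lower and 0 higher (28.6% called, under the share over all genes, median -0.253). Cr1l, a membrane inhibitor of C3 convertases in rodents, had 22.9, 30.8 and 25.1 CPM in Control-SU and 12.8, 13.6 and 18.0 CPM in Gem-SU, without overlap, and fell by 0.83 (edgeR adjusted p = 0.0109). The call was lost without Gem-SU replicate 2 (adjusted p = 0.0562). Cr2 and Itgam, receptors for C3 fragments and likewise named afterwards, were too low for the edgeR fit, with at most 1 count in a Control-SU library against 6 to 30 and 3 to 12 counts in Gem-SU. DESeq2 called Cr2 higher and not Itgam. In the authors' deposited table both, and C1rb and Masp2, have an adjusted p under 0.05. These calls likewise carry no test here.

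Of 24 further acute phase genes, 9 could be tested in PSC4, 5 were called lower and 1 higher (66.7% called against 46.3% over all genes, median -1.09). Steap4, a metal reductase, fell by 3.44 (edgeR adjusted p = 0.000434) from 101, 86 and 100 counts to 7, 11 and 9. Only 2 of its Gem-SU libraries were above the filter on low counts, against 3 in Control-SU. Its fold and call thus lean on the group where it is high. Serpina3g, a protease inhibitor of the antichymotrypsin family, fell by 2.41 (edgeR adjusted p = 0.00439). Hpx, hemopexin, which binds free heme, was the gene called higher, with 13, 0 and 4 counts in Control-SU and 109, 95 and 48 counts in Gem-SU. It passed the filter on low counts through the Gem-SU libraries, so no fold is given. Serpina3n, named after its values were seen, fell by 2.36 (adjusted p = 0.00772).

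The list of cytokines, receptors and transcription factors that act on acute phase genes was split. Of 25 genes, 21 could be tested in PSC4, 7 were called higher and 9 lower (76.2% called against 46.3% over all genes, median -0.296). Lif, a cytokine of the interleukin 6 family, rose from 6.90, 3.76 and 5.75 CPM in Control-SU to 147, 237 and 179 CPM in Gem-SU (log2 fold change 5.10, edgeR adjusted p = 2.1e-05). Its receptor Lifr fell by 2.32 (adjusted p = 6.13e-05), and Stat3, the transcription factor downstream of it, fell by 1.23 (adjusted p = 0.000281). The next 4 genes were named after their values were seen. Il6 had 3, 5 and 9 counts in Control-SU and 95, 117 and 101 in Gem-SU, and it passed the filter only through the latter, so its call carries no fold here. Rela, an NF-kappaB subunit, rose by 1.19 (adjusted p = 0.000922). Socs3, a feedback inhibitor that STAT3 induces, fell by 1.59 (adjusted p = 0.000632). Cebpb, which encodes a C/EBP factor, fell by 1.18 with overlapping groups (adjusted p = 0.0405). That call was lost without Control-SU replicate 1 (-0.73, adjusted p = 0.14) or 3 or Gem-SU replicate 2 or 3 (0.0729 to 0.132), and Cebpd of the same family was not called (-0.30, adjusted p = 0.341).

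In KPC4, 0 of the 42 tested genes of these 4 lists were called in the edgeR fit. An unadjusted edgeR p under 0.05 was found for 13 of the 42, against 17% of all genes tested. DESeq2 called 7 of the 42, against 5.95% of all genes it tested. The smallest p values in each list belonged to Masp1 (log2 fold change -0.61, edgeR adjusted p = 0.244) and Hc, complement C5 (1.22, 0.404), to Clu, clusterin (-0.63, 0.204), and C5ar2 (0.162), to Cd14 (-0.69, 0.205) and Cp, ceruloplasmin (-0.39, 0.566), and to Tnf (0.124) and Lif (1.96, 0.124). Tnf had 0, 0 and 5 counts with Control-PSC-SU and 9, 257 and 57 with Gem-PSC-SU, and Tnf and C5ar2 passed the filter only through the latter group. Lif had 20.8, 34.3 and 29.3 CPM with Control-PSC-SU and 36.7, 162 and 130 CPM with Gem-PSC-SU, so the groups did not overlap and Gem-PSC-SU replicate 1 was far below the other 2. With the replicate block, 5 listed genes were called, where 8.85% of all genes were called. Lif, Il6ra and Cebpb were higher and Clu was lower. The remaining call, Tnf, is not read, since the filter kept it only through Gem-PSC-SU. Without Gem-PSC-SU replicate 1, 9 listed genes were called, with 8.3% of all genes.

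**Figure D4:**
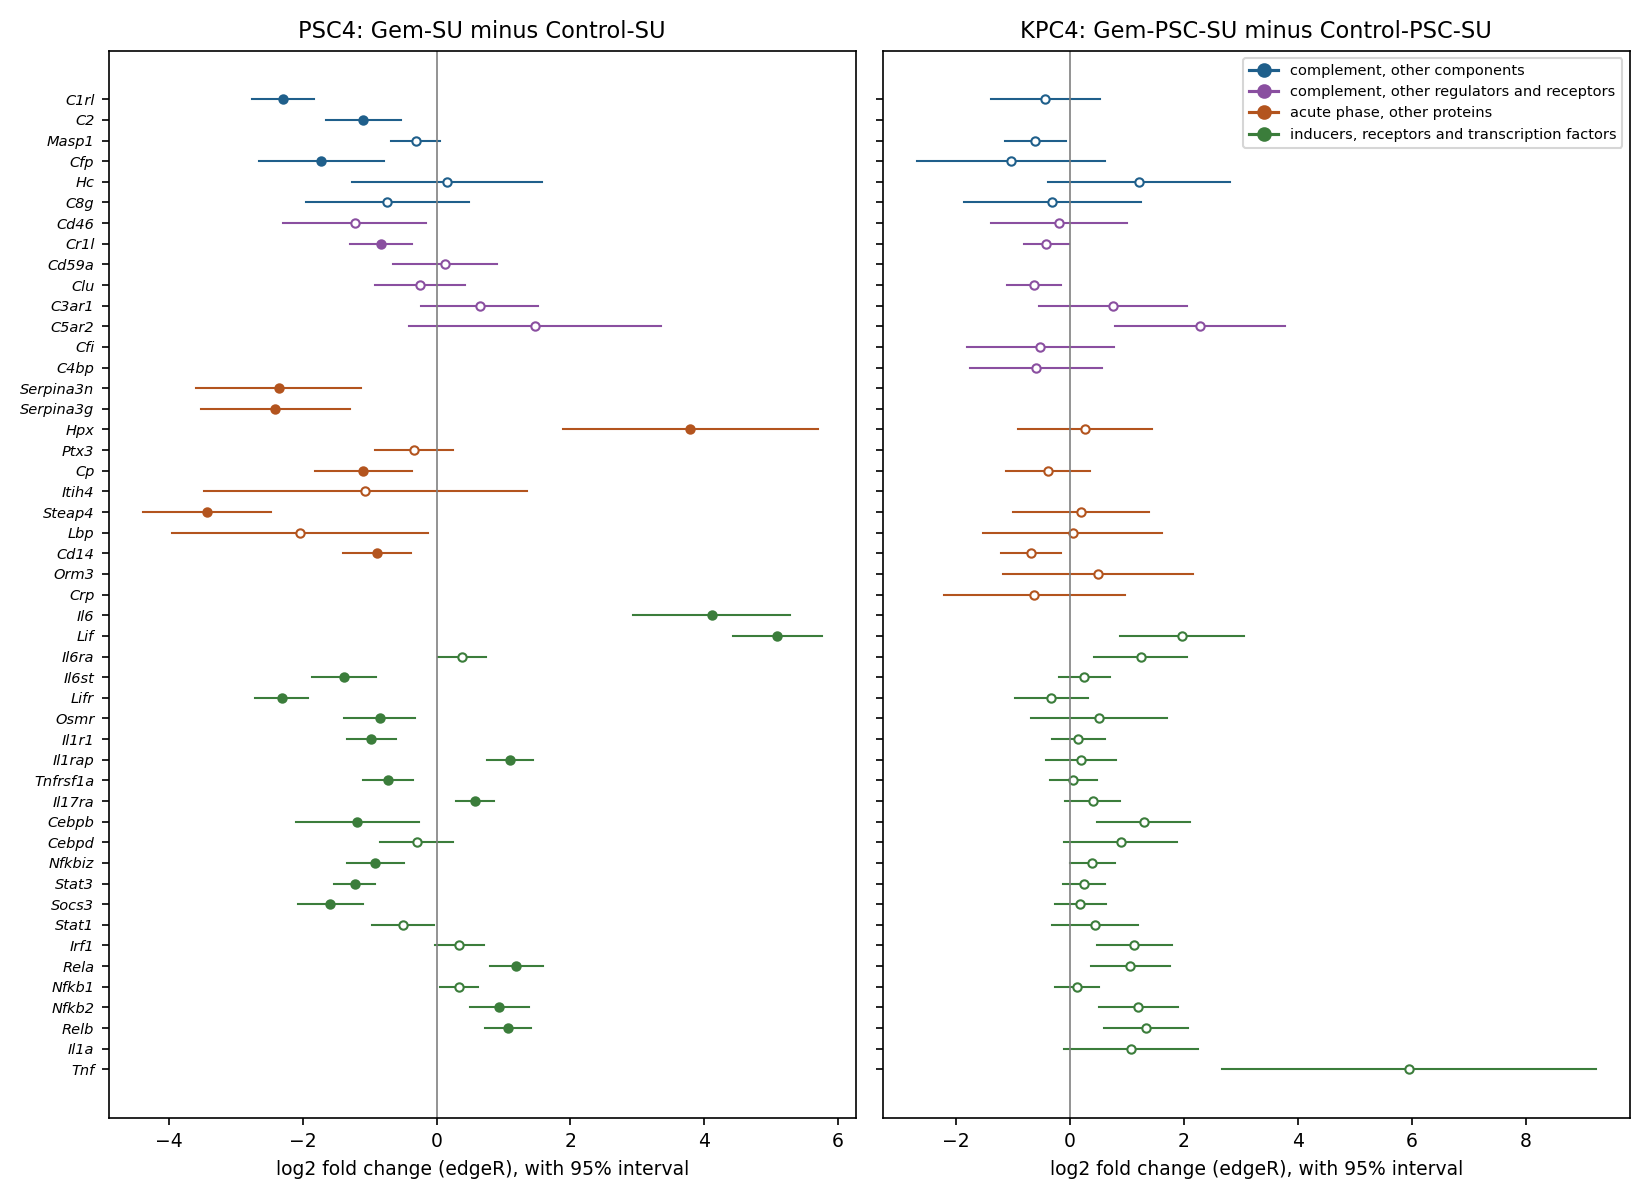
Log2 fold change (edgeR) with 95% interval of tested genes of the 4 further lists, coloured by list, PSC4 left and KPC4 right, filled where the adjusted p is under 0.05. Among the genes with enough counts for this fit, the filled complement points of PSC4 are all below 0 and the inducers lie on both sides, and no point is filled in KPC4.

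The genes with the pattern most like C3 and Saa3 were sought by Pearson correlation of log2 CPM over the 12 libraries among 13599 genes. Nearest to C3 were Rcn3, a calcium-binding protein of the endoplasmic reticulum (r = 0.9926), Dram1, a lysosomal membrane protein (r = 0.9925), and Loxl3, a lysyl oxidase (r = 0.9925). Nearest to Saa3 were Mustn1 (r = 0.9919), Psap, prosaposin (r = 0.9875), and Slpi, a secreted leukocyte protease inhibitor (r = 0.9852). The points share their line and group, and the difference between the lines makes up most of their spread, so that these values describe the libraries and carry no test.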

How the data were processed

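Per the labels' protocols, libraries were made from total RNA, 1 per culture, for 12 cultures. FastQC, Trim Galore 0.6.10, cutadapt 5.2, Salmon, R 4.5.1, DESeq2 and the build GRCm39 are named in the submitters' processing notes, with no parameters. The authors deposited a table of whole-number gene counts per line and a table of their own comparison per line, with a log2 fold change, p-value and adjusted p-value per gene. How the Salmon estimates became whole counts is not given in the sources used here. No gene of the KPC4 table has under 11 counts in all, while the PSC4 table has rows of 0, so low genes may have been dropped from one of them.

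Identifiers were matched to symbols for 16329 of 16386 and 15265 of 15309 genes. Counts were fitted per line with edgeR 4.0.16 in R 4.3.3 (filterByExpr, TMM, robust quasi-likelihood) with Benjamini-Hochberg adjustment over all genes tested. The difference between lines was an interaction term in 1 fit of 12 libraries. An SE is the log2 fold change divided by the square root of F. Transcript lengths came from GENCODE M21. The fit was tested on simulated counts. DESeq2 1.42.0, other scalings, other filters, a replicate block and fits without each library were alternatives. Of each further list, the 3 called genes with the smallest p are named, or the 2 with the smallest p where none was called; 1 gene of these lists stays in the counts and medians and is not reported here. Members and lists were chosen with earlier results of these data known. Replicates of a group differed by more than sampling noise (lowest chi-square per degree of freedom 30.4). The labels state no pairing. The deviations of same-numbered libraries correlated at 0.428, 0.52 and 0.31 in KPC4, each over 0.1. KPC4 numbers were therefore also read as pairs, on the values alone, number by number and with the replicate block. The main KPC4 fit and the fit of the difference between lines used no block. Values given without mention of the block come from fits without pairs. Where replicates are not separate supernatants, p-values measure only the spread between these cultures.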

Additional observations from a re-analysis of the deposited data

Results flagged for a closer look

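Of the 8 members in both tables, 1 was called as changing differently in the 2 lines (12.5%), near the 9.85% of all 13632 genes tested. The change of C1s1, the C1s protease, in PSC4 minus that in KPC4 was -2.4232 on the log2 scale (SE 0.58, edgeR adjusted p = 0.02, interaction term over 12 libraries). It was lower in each of the 3 Gem-SU libraries than in any Control-SU library, and the groups overlapped in KPC4. The call was lost without Gem-SU replicate 2 of PSC4 (adjusted p = 0.0589), and over the fits that each left out 1 library the difference lay between -2.98 and -2.11. KPC4 libraries held 118 to 353 counts of C1s1. The KPC4 log2 fold change of C1s1 was 0.48 in the edgeR fit here and is 0.04 in the authors' deposited table. Of the 10 stellate cell markers, 7 were called lower in the same PSC4 libraries and Acta2, Des and Fap were not called, and their part in this result was not tested.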

How the results depend on the processing

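Over the alternatives for single members, 293 values kept direction and call, 20 lost the call, 15 gained it and 11 changed sign. The number of members called in PSC4 was 7 (46.3% of all genes) and 4 in 1 fit over all 12 libraries (40.1%), which leaves out Serping1. It was 3 to 7 when 1 library was left out, with 29.8% to 49.9% of all genes called. In PSC4 the log2 fold changes without 1 library ranged from -1.40 to -0.95 for C3, -2.28 to -1.51 for C1ra and -2.44 to -1.65 for C1s1. The deviations of same-numbered PSC4 libraries correlated at 0.557, -0.044 and 0.0973, over 0.1 for replicate 1 alone. PSC4 numbers were therefore not treated as pairs, though the labels do not settle whether they are. A replicate block there called 7 members (C4b gained, edgeR adjusted p = 0.00345, and Lcn2 lost, 0.06) and 7266 genes (54.4%) against 6177. Lcn2 was also lost with library totals alone (0.0519), and Serping1 with no filter (0.0658).

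In KPC4, 0 members were called under every alternative run. The sign of Lcn2 turned with the replicate block (0.002) and with the block in DESeq2 (0.38), the latter chosen after seeing the data. Without 1 library, values in KPC4 ranged from -0.0157 to 0.95 for C3, -0.43 to 0.70 for C4b, -0.1954 to 0.0545 for Cfb, -0.37 to 0.15 for C1ra and -1.08 to 0.50 for Lcn2, on both sides of 0. These were not called in any of those fits. Listed genes called in KPC4 went from 0 (0% of all genes) to 5 with the replicate block (8.85%), Tnf among them. They were 8 with DESeq2 (5.95%), 7 of those in the edgeR fit and Il6, which had 0 counts in Control-PSC-SU. In 1 fit over 12 libraries they were 7 (4.47%), and with the block in DESeq2 11 (15.8%). Without 1 library they were 0 to 9, with 9 in the fit without Gem-PSC-SU replicate 1 (8.3%). In PSC4 listed genes called went from 27 (46.3% of all genes) to between 23 without Gem-SU replicate 2 (29.8%) and 33. The 33 came without Gem-SU replicate 1 (49.9%) and with DESeq2 (43.7%).

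Members with a called difference between lines went from 1 (9.85% of all genes) to 2 with at least 10 counts in every library (12%). They were 5 with the replicate block (21.9%) and 4 with DESeq2 (15.6%). The 5 include Saa3, which KPC4 holds at 0 to 5 counts. That block also covers PSC4, where the labels do not settle whether the numbers are pairs. Without 1 library the number was 0 to 4. It was 0 without Gem-SU replicate 2 of PSC4 (4.41% of all genes) and 4 without Gem-SU replicate 1 (12.5%). Without Gem-PSC-SU replicate 2 it was 3 (14.5%). The difference of Cd55 ranged from -2.09 to 0.98. The cause of these changes was not tested. Serping1, Lcn2, Saa3 and Cd55 have no value in fits whose filter left them out. Counts under 20 per library limit Serping1, Lcn2 and Cd55 in PSC4 and Saa3 in KPC4.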
